A study of Drosophila melanogaster with 19 samples.

Results

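Transcripts of voltage-gated channels and neurotransmitter receptors were examined across 5 genotypes of Drosophila melanogaster embryos. The set was a list of 33 gene symbols, chosen by name but with earlier results of these data known. It held 15 potassium channel genes, the genes of the sodium and calcium channels and other cation channels, and the genes of the glutamate and GABA receptors with CaMKII. Of these, 32 were found among the 17807 gene identifiers of the count table, and all 32 passed the expression filter that left 11978 genes for testing. The gene of the calcium channel beta subunit, Ca-beta, was not analysed here. The question for this set was whether loss of chiffon changed these transcripts. The gene gives rise to 2 proteins, Chiffon-A and Chiffon-B. It was also asked whether embryos with Chiffon-B but no Chiffon-A differed from null embryos and from those with the full-length transgene. No genotype made Chiffon-A without Chiffon-B, so whether Chiffon-A alone would restore the transcripts could not be tested.

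Excitable cells set their membrane voltage through these proteins. Sodium and calcium channels depolarise the membrane and potassium channels repolarise it, while ligand-gated and metabotropic receptors turn a transmitter into a current or a second message. In the fly embryo, neurons become electrically active and the glutamate receptors of the body-wall muscles cluster at the nerve ending only late in embryogenesis, after the stages at which axons grow out.

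RNA was sequenced from 19 libraries of embryos at stages 12 to 14. The chiffon gene gives rise to Chiffon-A, a partner of the replication kinase Cdc7, and Chiffon-B, a subunit of the histone acetyltransferase complex CHAT. Of the 19 libraries, 3 were FL and 4 each were null, FLWF24, ΔN and WT, and every group value below is a mean ± SD over these. Null embryos carried a pair of different chiffon null alleles, ETBE3 and DsRed, in trans. Embryos of the transgenic genotypes FL, FLWF24 and ΔN carried those same null alleles with 1 copy of a chiffon transgene under chiffon regulatory sequences. The FL transgene is full length. FLWF24 carries a premature stop and ΔN a deletion at the N-terminus, and both therefore make Chiffon-B but no Chiffon-A. WT embryos were the parental act-Gal4>GFP line without the null alleles. In the mutants, the ubiquitous act-Gal4 driver and UAS-GFP marked the embryos that had inherited both alleles. Each library was a pool of a few whole embryos picked by hand, so fewer cells of a type and less RNA per cell cannot be told apart in any value below, and p-values measure the spread between such pools.

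The libraries held 5161281 to 21621677 counts in genes. The chiffon transcript was at 22.3 to 38.0 CPM (counts per gene scaled to the same library total) in the null libraries and at 213 to 549 CPM in all others. A stage score, the mean log2(CPM + 1) of 23 late muscle and cuticle genes minus that of 17 early embryo genes, was 4.25 ± 1.59 in null, -1.39 ± 0.873 in FL, 0.356 ± 0.634 in FLWF24, 0.272 ± 2.10 in ΔN and 1.38 ± 1.08 in WT. The null libraries thus had the latest transcript profile, and null replicate 3 (score 2.08) lay apart from the other null libraries (4.06 to 5.49) and level with the 2 highest WT libraries (2.08 and 2.31). The score moved with genotype, and its part in the differences below was tested only by adding it to the model. FL libraries are numbered 2 to 4, as in the count table.

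By group mean, nearly all channel and receptor genes were most abundant in null embryos. This mean was highest in null for 29 of the 32 genes, with sei highest in WT, Irk3 in FLWF24 and Ork1 in ΔN. It was lowest in FL for 16 genes and in ΔN for 10. The order of group means was not counted over all tested genes. Summed over the 32 genes, the level was 1777 ± 647 CPM for null, 440 ± 71.4 for FL, 734 ± 236 for WT, 614 ± 161 for FLWF24 and 476 ± 87.6 for ΔN. The null group spread widely, from 822 CPM in replicate 3 to 1956 to 2241 CPM in the others, and 26 of the 32 genes had their lowest null value in replicate 3. The WT libraries at like stage scores held 835 CPM (replicate 4) and 1001 CPM (replicate 2), so the summed level of null replicate 3 was not above them. It was above that of ΔN replicate 4, which held 568 CPM at a higher score of 2.99.

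**Figure D1:**
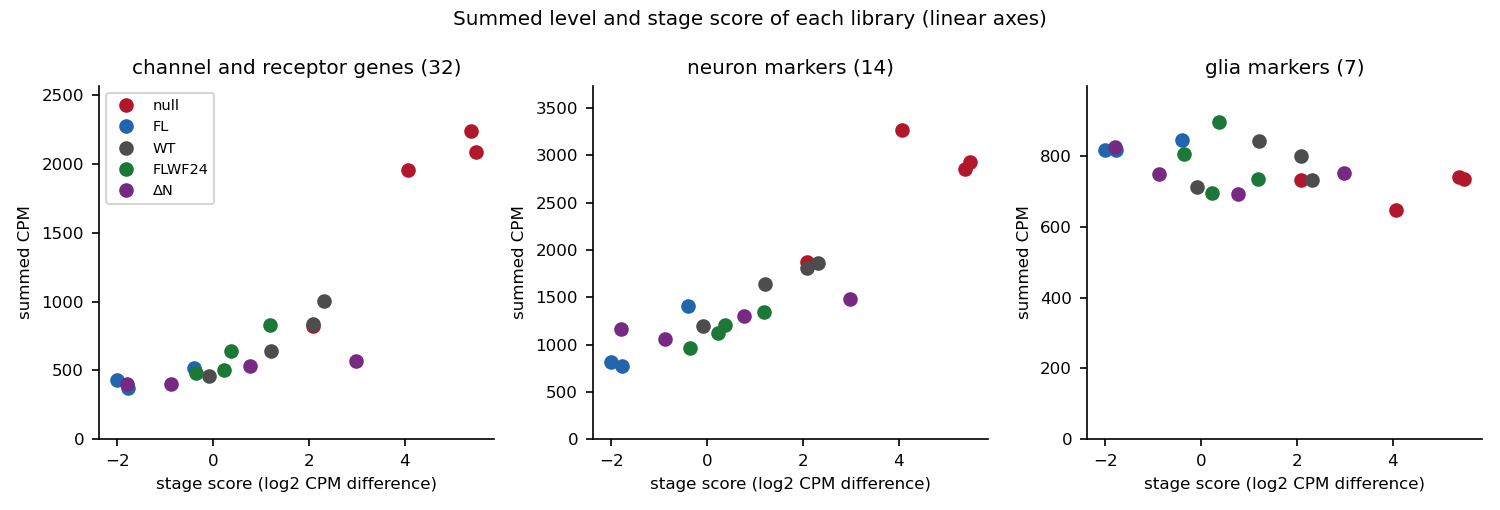
Summed CPM (y axis, linear) of the 32 channel and receptor genes, of 14 neuron markers and of 7 glia markers against the stage score (x axis, a difference of mean log2(CPM + 1)) in each of the 19 libraries, coloured by genotype. The null libraries at scores of 4.06 and above hold 1956 to 2241 CPM of channel and receptor transcripts, while null replicate 3 at 2.08 holds 822 CPM beside WT libraries at 835 and 1001 CPM and ΔN replicate 4 (score 2.99) holds 568 CPM. The summed glia markers lie between 649 and 895 CPM throughout.

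Levels per length of annotated exon differed widely between genes. CaMKII, a calcium-dependent kinase of synapses and muscle, was highest at 33.02 CPM per kb over all libraries, followed by the inward rectifier Irk3 (19.9), the A-type potassium channel Shal (12.1) and the sodium leak channel na (7.25). Irk1 (0.383) and Elk (0.508) were lowest. CaMKII alone made up 12.2% ± 1.61 of the summed CPM of the set in null and 20.8% to 29.5% on average in the other genotypes.

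Against FL, 3 of the 32 genes were called higher in null and none lower (Benjamini-Hochberg adjusted p under 0.05 over all genes tested and a log2 fold change of at least 0.5, edgeR with 1 factor of unwanted variation, RUV). Of all tested genes, 0.501% were called in that comparison, 0.359% as higher. The 3 genes were Shab, cac and slo. The log2 fold change was above 0 for 27 of the 32 genes, against 52.8% of all tested genes, and its median was 1.65 over the set and 0.05 over all tested genes. Without the RUV factor, 14 genes were called higher (Shab, Sh, Shaw, Shal, eag, slo, SK, Teh1, cac, Ca-alpha1D, stj, GluRIIA, Nmdar1 and GABA-B-R1) and 1 lower (Irk3), where 10.9% of all tested genes were called, 7.17% as higher and 3.75% as lower. The median over the set was then 3.13 and that over all tested genes 0.14. With the stage score in the model, edgeR called none of the 32 in any of the 3 null comparisons, for example at adjusted p 0.67 for Shab against FL. That fit called few genes of any kind, 2 of all 11978 genes against FL, 24 against WT and 11 against Chiffon-B only (the mean of FLWF24 and ΔN). The RUV factor and the stage score were both highest in the same library in 4 of 5 genotypes and both lowest in the same library in 3 of 5. The factor also differed between genotypes, at 135, 50.8, 0.247 and 97.7 in null and -53.2, -51.4 and -42.7 in FL. In WT it ran from -67.1 to 68.6, overlapping null. Between null and FL, differences linked to the factor and those of genotype thus cannot be fully told apart.

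Against WT, 1 gene was called higher in null, na, where 0.634% of all tested genes were called, 0.234% as higher. The log2 fold change was above 0 for 27 genes, against 52% of all tested genes, with a median of 0.83 over the set and 0.03 over all. Without the RUV factor the calls were na and Shal, with 1.47% of all genes called, 0.852% as higher, and a median over the set of 1.40. Against the genotypes with Chiffon-B only, Shab and stj were called higher in null, where 1.31% of all tested genes were called, 0.81% as higher. There the log2 fold change was above 0 for 29 genes, against 56.4% of all tested genes, and the median was 1.24 over the set and 0.12 over all. Without the RUV factor this count was 15 higher and 1 lower (Irk3), with 19.2% of all genes called, 13.9% as higher and 5.26% as lower. All 3 comparisons use the same null libraries and are given side by side only. Leaving out null replicate 3 moved the counts to 4 genes against FL, 2 against WT and 8 against Chiffon-B only, where 2.61%, 2.33% and 5.37% of all genes tested in that fit were called. Leaving out null replicate 2 moved them to 1, 0 and 1, where 0.244%, 0.354% and 0.497% of all genes were.

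**Figure D2:**
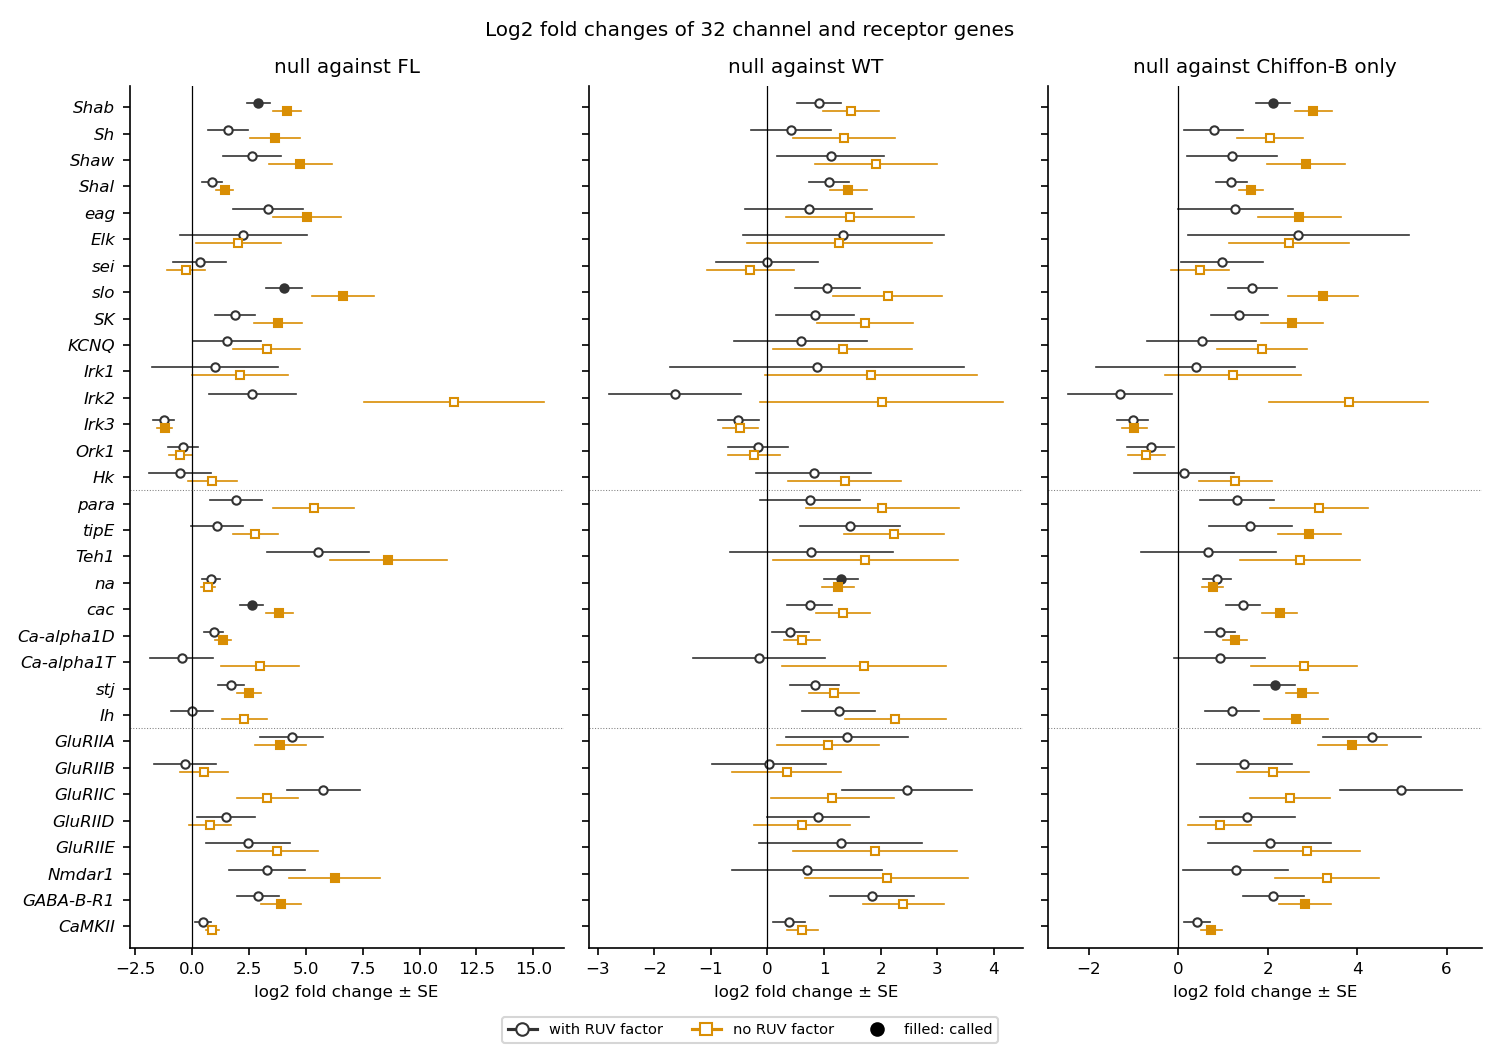
Log2 fold changes (x axis, with SE as lines) of the 32 genes in null against FL, against WT and against the mean of FLWF24 and ΔN, fitted with the RUV factor (circles) and without it (squares), with called genes filled. Dotted lines part potassium channels, other channels and receptors. Against FL 27 of 32 circles lie to the right of 0 and Shab, slo and cac are filled, while Irk3 lies to the left of 0 in all 3 panels in both fits.

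Among the potassium channels, Shab showed the clearest separation. Shab (FBgn0262593, chromosome arm 3L of the dm6 assembly, 2895017 to 2959579, plus strand) encodes a delayed rectifier that carries much of the sustained potassium current of neurons and muscle. It was at 146, 112, 75.7 and 157 CPM in null replicates 1 to 4, at 4.36, 2.65 and 13.4 in FL, at 19.1, 68.1, 33.3 and 55.4 in WT, at 8.18, 12.1, 25.3 and 12.6 in FLWF24 and at 16.2, 16.6, 7.05 and 23.2 in ΔN. All null libraries lay above all 15 others, with null replicate 3 nearest to WT replicate 2, and only GluRIIE and GABA-B-R1 of the set shared this, where 2.59% of all tested genes did. In null, Shab was higher by 2.92 on the log2 scale than in FL (SE 0.50, adjusted p 0.0072) and by 2.12 than in the Chiffon-B-only genotypes (SE 0.38, adjusted p 0.0071). The value against WT was 0.91 (SE 0.39, adjusted p 0.36), not a call. The call against FL was kept whichever of the 19 libraries was dropped. It was lost when the stage score entered the model (2.18, adjusted p 0.67) and in a fit of null and FL alone (3.25, adjusted p 0.069). The call against Chiffon-B only was also kept whichever library was dropped and lost with the stage score in the model (1.54, adjusted p 0.39).

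The gene slo (FBgn0003429, 3R, 24662491 to 24711595, plus strand) encodes the large-conductance channel that opens on calcium and voltage together. It was at 163, 141, 51.1 and 209 CPM in null and at 0.898, 0.583 and 2.70 CPM in FL, so that the groups lay far apart. WT held 5.21, 55.5, 21.8 and 46.9 CPM, FLWF24 4.16, 13.6, 59.9 and 21.1 and ΔN 3.96, 5.96, 1.14 and 26.1, which in WT and FLWF24 reached the level of null replicate 3. The log2 fold change against FL was 4.04 (SE 0.79, adjusted p 0.027). This call was lost without null replicate 2 (adjusted p 0.066), FL replicate 2 (0.14) or FL replicate 3 (0.13), and with the stage score in the model (2.73, adjusted p 0.975). Against WT the value was 1.05 (SE 0.57, adjusted p 0.51).

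The other calcium-activated channel, SK, was at 31.2 to 106 CPM in null, 2.44 to 9.26 in FL and 10.7 to 37.1 in WT, with a log2 difference against FL of 1.89 (SE 0.87, adjusted p 0.41). Sh and the non-inactivating channel Shaw belong to the same family as Shab and had, by mean, their highest level in null and their lowest in FL. The fast A-type channel Sh was at 119.6, 162, 43.0 and 112 CPM in null, 3.14, 2.59 and 20.2 in FL and 14.7, 68.9, 38.0 and 49.5 in WT, and Shaw at 21.3 to 99.4 CPM in null, 0.906 to 3.98 in FL and 3.27 to 38.1 in WT. Neither was called against FL (adjusted p 0.53 and 0.44), though both groups of null values lay wholly above those of FL. The channel eag, named for the shaking of its mutants under ether, was at 51.4, 38.3, 7.38 and 43.7 CPM in null, 0.513, 0 and 2.64 in FL and 2.57, 24.9, 3.87 and 20.1 in WT. In the fit, eag had a log2 difference of 3.35 against FL (SE 1.55, adjusted p 0.41) and 0.73 against WT (SE 1.12, adjusted p 0.89), the latter turning to -0.31 with the stage score in the model.

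Shal, the A-type channel of cell bodies and dendrites, differed in its pattern. It was at 156, 135 and 131 CPM in null replicates 1, 2 and 4 but at 39.3 in replicate 3, within the 24.9 to 56.2 CPM of the other 15 libraries. Its log2 fold change was 1.08 against WT (SE 0.35, adjusted p 0.19) and 1.18 against Chiffon-B only (SE 0.34, adjusted p 0.077). The eag relative Elk, the voltage-gated channel KCNQ and the Shaker beta subunit Hk were low, with highest values of 10.2, 31.9 and 22.6 CPM in null. The eag-related channel sei, whose mutants have seizures in heat, stayed between 0.579 and 12.8 CPM in all genotypes. Of the exon bases of KCNQ 27.4%, and of those of sei 14.6%, lie on the strand opposite to exons of other genes, and since the libraries may not have kept strand, their values are uncertain.

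Not all potassium channels were highest in null. The inward rectifier Irk3 (FBgn0032706, 2L, 18711071 to 18713748, minus strand) was at 31.9, 14.3, 21.7 and 29.8 CPM in null and 72.8, 56.6 and 38.8 in FL, and was the only gene of the set whose null values all lay below those of FL, where 8.46% of all tested genes did. WT held 47.2, 22.4, 32.002 and 34.5 CPM, overlapping null. Its log2 fold change against FL was -1.25 (SE 0.44, adjusted p 0.24), and -1.20 without the RUV factor, which was called (SE 0.33, adjusted p 0.028). Of its exon bases, 10.8% lie opposite an exon of Grip71. The leak channel Ork1 was at 4.71 to 13.7 CPM in null and 8.10 to 26.2 CPM elsewhere, with log2 fold changes of -0.38 against FL and -0.17 against WT (adjusted p 0.91 and 0.96). Irk2 had no count in any FL library and was at 81.6, 11.7, 0.297 and 23.8 CPM in null, a mean at least 157-fold higher than the floor of 3 counts per FL library (0.187 CPM). Without null replicate 1 this was at least 63.6-fold, and null replicate 3 lay close to the floor. Its values in WT were 0, 20.8, 5.64 and 2.57 CPM, and the sign of its difference between null and WT turned with the RUV factor (-1.63 with it, 2.02 without). Irk1 was under 9 CPM in every library and shares 61.0% of its exon bases with CG46310 on the same strand, so its values are uncertain.

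**Figure D3:**
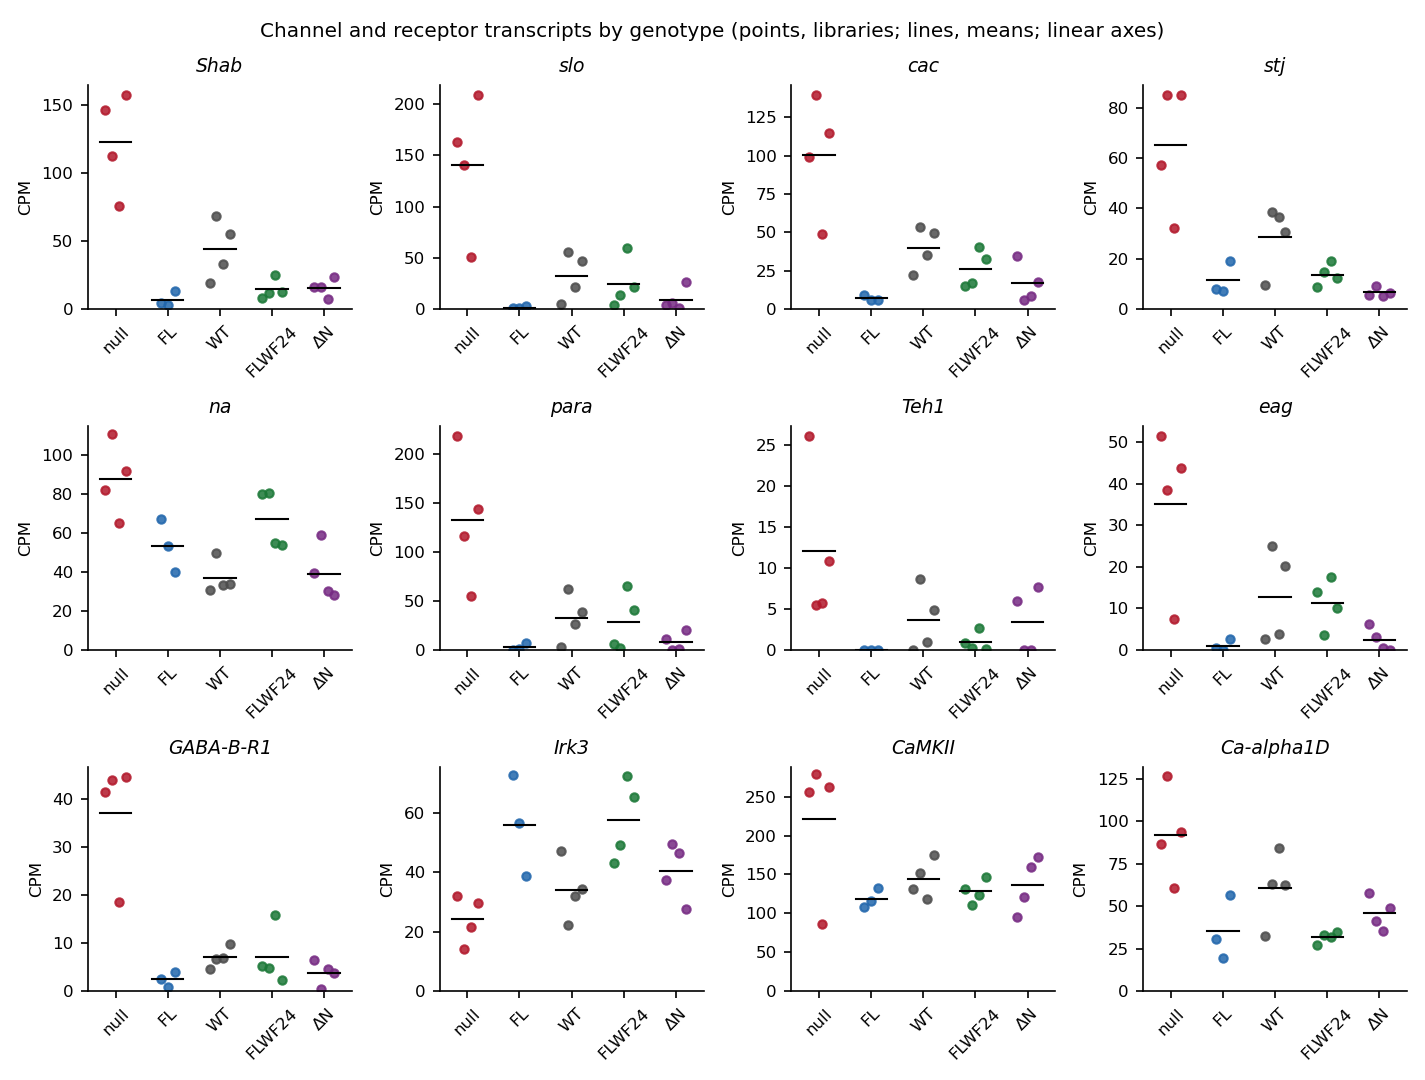
CPM (y axes, linear from 0) of 12 channel and receptor genes in each library, by genotype, with group means as lines. The 4 null points of Shab (75.7 to 157 CPM) lie above every other point, slo is under 3 CPM in FL and at 51.1 to 209 in null, and Irk3 is lowest in null (14.3 to 31.9 CPM).

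Of the other cation channels, cac was called against FL, na against WT and stj against Chiffon-B only. The gene cac (FBgn0263111, X, 11931280 to 11985087, minus strand) encodes the pore of the presynaptic calcium channel that triggers transmitter release. It was at 99.4, 139.6, 49.0 and 114.5 CPM in null, 9.17, 5.70 and 6.15 in FL, 22.1, 53.6, 35.2 and 49.4 in WT, 15.1, 16.98, 40.5 and 32.3 in FLWF24 and 34.6, 5.96, 8.19 and 17.9 in ΔN. FL had the lowest mean and the narrowest range, and the WT range took in null replicate 3. Against FL, cac was higher in null by 2.62 on the log2 scale (SE 0.52, adjusted p 0.018). The values were 1.44 against Chiffon-B only (SE 0.38, adjusted p 0.057) and 0.75 against WT (SE 0.40, adjusted p 0.49). The call was lost without null replicate 2 (adjusted p 0.094) or FL replicate 3 (0.082), and with the stage score in the model (1.52, adjusted p 0.975).

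The gene stj (FBgn0261041, 2R, 13805794 to 13819571, plus strand) encodes the alpha2delta subunit that brings Cac to the presynaptic membrane. Its CPM were 57.4, 85.2, 32.3 and 85.3 in null, 8.74, 14.9, 18.98 and 12.3 in FLWF24 and 5.69, 9.29, 5.35 and 6.23 in ΔN, without overlap. FL held 7.95, 7.25 and 19.04 and WT 9.41, 38.7, 36.8 and 30.5. In null stj was higher than in the Chiffon-B-only genotypes by 2.15 on the log2 scale (SE 0.46, adjusted p 0.019). Log2 fold changes were 1.73 against FL (SE 0.57, adjusted p 0.19) and 0.84 against WT (SE 0.43, adjusted p 0.47). The call was lost without null replicate 2 (adjusted p 0.11), null replicate 4 (0.052), FLWF24 replicate 3 (0.14) or FLWF24 replicate 4 (0.063), and with the stage score in the model (1.93, adjusted p 0.39).

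The sodium leak channel narrow abdomen, na (FBgn0002917, X, 14266367 to 14277416, plus strand), sets resting excitability in pacemaker and other neurons. It was at 82.2, 111, 65.4 and 91.7 CPM in null and 30.6, 49.6, 33.5 and 34.0 in WT, without overlap. It was also high in FLWF24 (80.1, 80.6, 54.8 and 53.9) and overlapped null there and in FL (67.1, 53.3 and 40.1), while ΔN held 39.7, 58.8, 30.1 and 28.3. Against WT, na was higher in null by 1.30 on the log2 scale (SE 0.30, adjusted p 0.038), and against FL the value was 0.83 (SE 0.38, adjusted p 0.40). The call against WT was lost on dropping any of 11 libraries in turn (adjusted p at most 0.15, without null replicate 2) and in a fit of null and WT alone (1.04, adjusted p 0.17). It was also lost under upper-quartile scaling (1.21, adjusted p 0.052) and when the stage score entered the model (1.45, adjusted p 0.089).

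The sodium channel complex was read through its pore para and the auxiliary subunits tipE and Teh1, which raise or tune its current. In null, para (FBgn0285944, X, 16455027 to 16533096, minus strand) was at 218, 116, 54.7 and 143 CPM, against 0.513, 1.55 and 7.68 in FL and 2.72, 62.5, 26.8 and 38.4 in WT. FLWF24 split into 6.13 and 1.84 CPM in replicates 1 and 2 and 65.6 and 40.9 in replicates 3 and 4, and ΔN held 10.8, 0, 0.796 and 20.2. The log2 fold change of para was 1.93 against FL (SE 1.15, adjusted p 0.57) and 0.75 against WT (SE 0.89, adjusted p 0.83), and with the stage score in the model it turned to -0.64 and -0.71. The values of tipE were 34.6, 19.4, 7.43 and 25.4 CPM in null, 2.27 to 4.10 in FL and 1.32 to 7.70 in WT, and 19.03% of its exon bases are shared with CG18675 on the same strand. Teh1 was at 26.1, 5.52, 5.75 and 10.8 CPM in null and had at most 1 count in each FL library, so the null mean was at least 64.2-fold higher than the floor, or 39.3-fold without null replicate 1. In WT it was at 0, 8.71, 0.967 and 4.84 CPM, and its log2 fold change of null against WT, 0.78 (SE 1.44, adjusted p 0.92), turned to -0.85 with the stage score in the model. None of the 3 was called with the RUV factor. Without it, Teh1 was called against FL (adjusted p 0.039) and tipE against Chiffon-B only (log2 fold change 2.93, SE 0.70, adjusted p 0.0083).

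The remaining channels of this class were not called with the RUV factor. The L-type calcium channel Ca-alpha1D of muscle and dendrites was at 60.6 to 127 CPM in null, 19.4 to 56.4 in FL and 32.4 to 84.2 in WT. The T-type channel Ca-alpha1T was at 16.2 to 93.9 CPM in null and 2.33 to 15.9 in FL, and the pacemaker channel Ih at 22.5 to 82.5 and 5.51 to 16.1. For both, the difference from FL depended on the RUV factor: the log2 fold change was -0.46 with it and 2.98 without for Ca-alpha1T (adjusted p 0.96 and 0.25), and 0.0098 and 2.30 for Ih (unadjusted p 0.99 and adjusted p 0.13). Between those fits the sign also turned against FL for sei, Hk and GluRIIB, none of which was called in either.

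The muscle glutamate receptor of the fly is a tetramer with the essential subunits GluRIIC, GluRIID and GluRIIE and either GluRIIA or GluRIIB. GluRIIA (FBgn0004620, 2L, 5555072 to 5558994, plus strand) was at 33.3, 22.6, 12.9 and 26.8 CPM in null, 17.4, 10.05, 10.4 and 7.70 in WT, 0.834, 1.42 and 2.58 in FL, 11.4, 11.3, 2.31 and 2.62 in FLWF24 and 1.15, 0, 0 and 0.189 in ΔN. GluRIIC (FBgn0046113, 2L, 914086 to 917805, plus strand) split the FLWF24 libraries in the same way, with 13.2 and 14.3 CPM in replicates 1 and 2 and 1.504 and 1.55 in replicates 3 and 4. In null it was at 13.2, 18.03, 17.5 and 28.3 CPM, in WT at 8.71, 4.91, 13.1 and 8.07, in FL at 0.898, 3.43 and 1.46 and in ΔN at 0, 2.83, 3.18 and 0. The null values lay above all FL values for both genes, and narrowly above all WT values for GluRIIC. The log2 fold changes of null against FL were 4.39 for GluRIIA (SE 1.38, adjusted p 0.17) and 5.77 for GluRIIC (SE 1.61, adjusted p 0.12), neither called. They were 4.34 and 4.98 against Chiffon-B only (adjusted p 0.0504 and 0.064) and 1.41 and 2.47 against WT (adjusted p 0.69 and 0.41). Without the RUV factor the values against FL were 3.88 (SE 1.13, adjusted p 0.035, called) and 3.31 (SE 1.33, adjusted p 0.10), and DESeq2 called both (adjusted p 0.0048 and 4.0e-04).

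GluRIIE was at 21.2, 23.3, 11.2 and 16.8 CPM in null and at most 8.43 CPM in every other library, with log2 fold changes of 2.46 against FL (SE 1.84, adjusted p 0.67) and 1.29 against WT (SE 1.44, adjusted p 0.81). GluRIID overlapped between all genotypes, with 12.7 to 31.4 CPM in null and 4.86 to 21.9 in FL. GluRIIB was at 7.88 to 18.4 CPM in null, which overlapped FL (3.43 to 14.9) and WT (2.10 to 14.3) but not FLWF24 (1.39 to 7.85) or ΔN (0 to 3.13). Mean CPM in FL were 1.61, 8.61, 1.93, 10.6 and 1.33 for GluRIIA to GluRIIE, where in null they were 23.9, 12.4, 19.3, 18.6 and 18.1. By these means GluRIIA, GluRIIC and GluRIIE stood further apart between the genotypes than GluRIIB and GluRIID, a difference between subunits that was not tested. GluRIID and GluRIIE share 122 exon bases, and reads in these could have been left out or counted for the wrong gene.

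**Figure D4:**
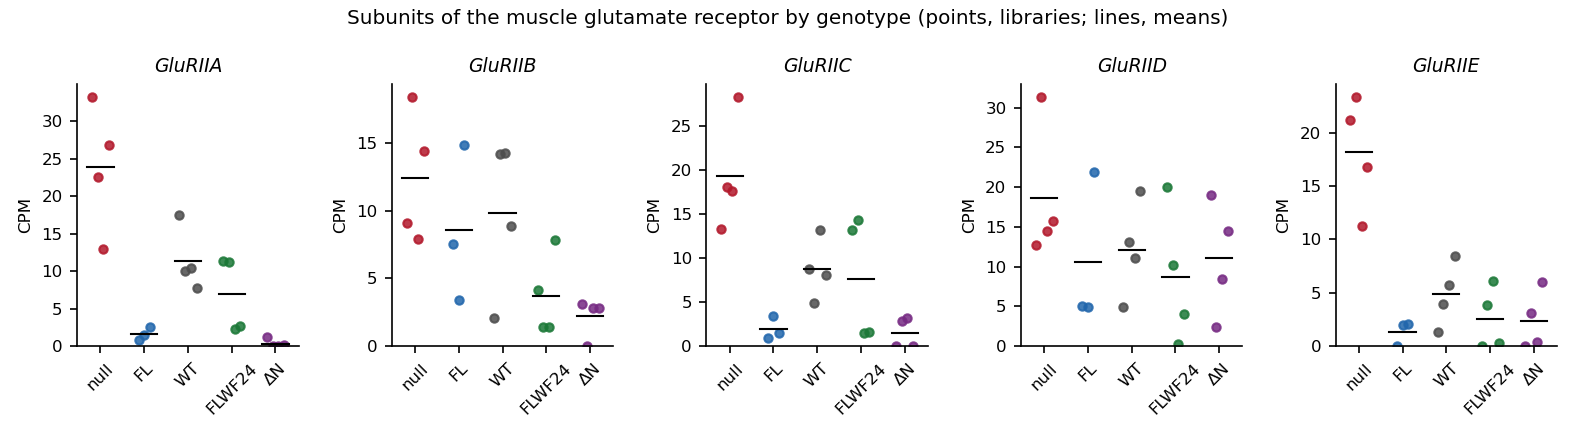
CPM (y axes, linear from 0) of the 5 muscle glutamate receptor subunits in each library, by genotype, with group means as lines. GluRIIE is at 11.2 CPM or above in null and at 8.43 or below elsewhere, GluRIIA is at 1.15 CPM or below in ΔN, and GluRIIB and GluRIID overlap between null, FL and WT.

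GABA-B-R1 (FBgn0260446, 2L, 15016331 to 15034704, plus strand), a subunit of the metabotropic GABA receptor, was at 41.4, 44.0, 18.6 and 44.6 CPM in null. All other libraries lay below this, with 2.57, 0.906 and 3.93 CPM in FL, 4.67, 6.70, 6.93 and 9.75 in WT, 5.22, 4.77, 15.9 and 2.21 in FLWF24 and 6.52, 0.505, 4.55 and 3.78 in ΔN. Null replicate 3 was thus above the WT libraries with like stage scores (6.70 and 9.75). Its log2 fold changes were 2.895 against FL (SE 0.92, adjusted p 0.17), 2.13 against Chiffon-B only (SE 0.69, adjusted p 0.11) and 1.85 against WT (SE 0.74, adjusted p 0.33), so none of the 3 was called despite the separation of values. Nmdar1, the obligatory subunit of the NMDA receptor, was at 53.7, 12.8, 10.2 and 24.1 CPM in null and 0, 0 and 0.937 in FL, with 1.61 to 15.1 in WT. CaMKII was at 257, 279, 86.6 and 262 CPM in null and 95.3 to 175 in all other libraries, so that null replicate 3 was the lowest of all 19. Its log2 fold change was 0.48 against FL and 0.38 against WT (SE 0.36 and 0.29, adjusted p 0.67 in both).

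Counted by separation of values, 22 of the 32 genes had every null library above every FL library, where 20% of all tested genes did. Against WT this held for 5 genes (Shab, na, GluRIIC, GluRIIE and GABA-B-R1), where 6.73% of all tested genes did. Against FL and WT together it held for Shab, GluRIIC, GluRIIE and GABA-B-R1, 4 of 32, where 5.03% did.

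The controls were also compared with each other. None of the 32 genes was called in FL against WT, where 0.0918% of all tested genes were called, 8 had an unadjusted p under 0.05 (8.75% of all tested genes did) and DESeq2 called 3 as lower, where it called 1.76% of all tested genes. The log2 fold change was above 0 for 9 of 32 genes and below 0 for 23, where 46.5% of all tested genes were above 0, with a median of -0.94 over the set and -0.05 over all. Every FL library lay below every WT library for 8 genes (Shab, slo, SK, cac, GluRIIA, GluRIIC, Nmdar1 and GABA-B-R1), where 7.56% of all tested genes did. The smallest adjusted p was that of Shab, at a log2 difference of -2.01 (SE 0.44, adjusted p 0.069), followed by cac (-1.87, SE 0.44, adjusted p 0.12) and slo (-2.99, SE 0.71, adjusted p 0.17). The comparison of null with FL and that of null with WT therefore rested on controls with different mean summed levels of these genes (440 and 734 CPM) and different stage scores.

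Between the transgenes, none of the 32 genes was called with the RUV factor. In FLWF24 against FL, 0.025% of all tested genes were called, 4 of the 32 had an unadjusted p under 0.05 where 6.36% of all tested genes did, and DESeq2 called 1 as higher (0.685% of all genes). In ΔN against FL, 0.0167% of all genes were called, 6 of the 32 (10.7% of all) had such a p, and DESeq2 called 1 as higher (1.95% of all). In ΔN against FLWF24, 0.342% were called, 3 (11.8% of all) had such a p, and DESeq2 called 1 as lower (1.86% of all). The smallest adjusted p in the last of these was that of GluRIIA, whose values in ΔN were all below those in FLWF24, with a log2 difference of -4.16 (SE 1.02, adjusted p 0.085). In the opposite direction, Ca-alpha1D was at 35.5 to 57.6 CPM in ΔN and 27.4 to 34.8 in FLWF24, also without overlap (log2 fold change 0.64, SE 0.31, adjusted p 0.42). Of all tested genes, 3.53% lay wholly lower and 1.45% wholly higher in ΔN than in FLWF24. The value of slo in FLWF24 against FL was 2.68 (SE 0.68, adjusted p 0.51) and that of cac 1.30 (SE 0.43, adjusted p 0.66).

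How far the transcripts moved with developmental progress was measured in the 15 libraries outside null, by a slope on the stage score with genotype in the model. Of the 32 genes, 4 rose with the score: slo by 0.72 on the log2 scale per unit of score (SE 0.19, adjusted p 0.032), SK by 0.84 (SE 0.20, adjusted p 0.021), para by 1.75 (SE 0.28, adjusted p 0.0020) and Ca-alpha1T by 1.41 (SE 0.37, adjusted p 0.037). No slope below 0 passed the threshold, though that of GluRIIC was large (-1.29, SE 0.50, adjusted p 0.15), and those of Elk (-0.60, SE 0.90, adjusted p 0.77) and Hk (-0.23, adjusted p 0.82) were also negative. Of the 11349 genes tested there, 4.44% had a slope past the threshold, 2.96% as higher with the score. The slope was above 0 for 25 of the 32 genes, where it was for 51.9% of all tested genes, with a median of 0.38 over the set and 0.01 over all tested genes. It was 0.37 for Shab (SE 0.14, adjusted p 0.14), 0.40 for cac (SE 0.14, adjusted p 0.12) and -0.21 for Irk3 (SE 0.08, adjusted p 0.14), and within 0.2 of 0 for Shal, Ork1, na, stj, CaMKII, Ca-alpha1D, sei, Irk1 and GluRIIA. SEs were wide for Irk1 (0.61), GluRIIA (0.45) and sei (0.32), beside 0.057 for CaMKII and 0.086 for Shal. A lack of slope cannot be read for Irk1, GluRIIA and sei. It was not shown for the other genes near 0 either, with SEs of 0.16 for stj, 0.14 for Ork1 and 0.096 for Ca-alpha1D. DESeq2 called 9 of the 32 slopes, where it called 10.1% of all genes, and none was called with an RUV factor beside the score, where 0.855% of all genes were. Without ΔN replicate 4, the highest of the ΔN libraries in stage score, 7 slopes were called, and without FL replicate 2, FL replicate 4, FLWF24 replicate 2 or WT replicate 2 there were 2. The share of all genes called was 4.55% without ΔN replicate 4 and 3.15% to 3.48% without each of the others.

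Within genotypes, the library with the highest stage score held the highest value of the group for 24 of the 32 genes in FL (replicate 4), 20 in FLWF24 (replicate 3) and 18 in WT (replicate 2). The shares of all tested genes were 33.1%, 30.3% and 29.2%. In ΔN and null it did not hold the largest number. ΔN replicate 4 was highest for 11 genes and replicate 1 for 12, where 32.5% and 25.1% of all tested genes were highest there. Null replicate 4 was highest for 8, replicate 1 for 13 and replicate 2 for 9, beside 19.3%, 30.6% and 17.7% of all tested genes. The library with the lowest score held the lowest value for 26 genes in null (replicate 3), 23 in WT (replicate 1) and 10 in ΔN (replicate 2), where 29.6%, 30.9% and 17.3% of all tested genes were lowest there. In FL and FLWF24 another library held the lowest value more often: FL replicate 3 for 14 genes beside 9 in replicate 2, and FLWF24 replicate 1 for 12 beside 9 in replicate 2. The shares of all tested genes were 21.9% and 23.7% in these FL libraries and 23.6% and 16.6% in these FLWF24 libraries.

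Markers of the cell types that use these channels differed between the genotypes as well. The summed level of 14 neuron markers was 2731 ± 599 CPM for null, 998 ± 356 for FL, 1626 ± 300 for WT, 1156 ± 160 for FLWF24 and 1251 ± 182 for ΔN. That of 13 muscle markers was 10187 to 32567 CPM in null, 1866 to 3302 in FL and 4196 to 11709 in WT, and 12 of these 13 genes are also part of the stage score. That of 7 glia markers was 649 to 740 CPM in null and 694 to 895 CPM elsewhere. Much of the glia sum was nrv2, with group means of 306 to 359 CPM, and its members did not all keep to 1 level: the glutamate transporter gene Eaat1 was at 137, 9.57, 17.7 and 60.7 CPM in null and listed at 0 in all FL libraries. The neuron marker elav, switched on as neurons are born, was at 209, 539, 618 and 358 CPM in null, a mean of 431 CPM and 505 without replicate 1, beside means of 490 in FL, 597 in WT, 457 in FLWF24 and 612 in ΔN, while the synaptic vesicle gene nSyb was at 177 CPM in null, 19.7 in FL and 60.7 in WT. ChAT, VGlut, Gad1 and Snap25, which mark transmitter types and release, were at 0 in at least 1 library each. With the RUV factor, the log2 fold change of null was above 0 for 13 of the 14 neuron markers against FL and 12 against WT. Of all tested genes, 52.8% and 52% were. An unadjusted p below 0.05 was found for 10 and 4 markers (11.7% and 11.5% of all tested genes), but edgeR made 0 calls in both. Against Chiffon-B only, 2 of 14 (cpx and VAChT) were called, where 1.31% of all tested genes were. Without the RUV factor, 10 of 14 were called higher against FL, 0 against WT and 11 against Chiffon-B only. Of all tested genes, 7.17%, 0.852% and 13.9% were called higher there. The part of these changes in the values of the channel and receptor genes was not tested.

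The other subunits and receptors of these families, a list of 47 genes of which 44 were tested, gave no call with the RUV factor in null against FL or WT and 1 against Chiffon-B only. Their median log2 fold changes were 1.54 against FL, 0.94 against WT and 1.19 against Chiffon-B only, beside 1.65, 0.83 and 1.24 for the 32 genes. Without the RUV factor, 7 of the 44 were called higher against FL, none against WT and 12 against Chiffon-B only. Of all tested genes, 7.17%, 0.852% and 13.9% were called higher there. With the factor, 0.501%, 0.634% and 1.31% of all tested genes were called in the same comparisons. The gene called with the factor against Chiffon-B only was qvr, also called sleepless. It encodes a membrane-anchored protein that raises Shaker potassium currents. It was at 35.0, 49.0, 23.7 and 39.7 CPM in null, 2.69, 0.842 and 2.58 in FL, 4.36, 21.2, 4.998 and 14.9 in WT and 11.5, 5.25, 5.32 and 5.40 in FLWF24, but had at most 1 count in each ΔN library. For qvr, the mean in FLWF24 was at least 19.6-fold, and in FL at least 5.81-fold, higher than the floor of 3 counts per ΔN library, and it was called lower in ΔN against FLWF24 (adjusted p 5.0e-04) and against FL (adjusted p 0.036). The call of null against Chiffon-B only (adjusted p 6.0e-04) thus rested partly on counts of at most 1 in ΔN.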

How the data were processed

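RNA-seq counts of 19 libraries from pooled stage 12 to 14 embryos were analysed. The authors trimmed the reads (Trimmomatic), aligned them to dm6 (HISAT2) and counted them per gene with HTSeq 0.11.1, and the deposited values are whole-number counts, not normalized. Reads that were not assigned to a gene, mostly because they aligned to more than 1 place (45.0% to 85.3% of all reads listed), made up 63.6% to 96.0% per library and stayed out of library sizes, as did spike-ins, reporters and 138 ribosomal RNA genes. Counting used HTSeq defaults, which take strand into account. Whether the libraries kept strand is not given in the sources used here. FL columns, numbered 2 to 4, were matched to the FL samples as a group.

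Counts were scaled by TMM and tested with edgeR 4.0.16 (quasi-likelihood, R 4.3.3) in 1 fit of all genotypes with 1 RUV factor estimated from replicate groups, over the 11978 genes kept by filterByExpr. Calls needed an adjusted p (Benjamini-Hochberg over all of these genes) below 0.05 and a log2 fold change of at least 0.5 in size. The slope on the stage score was fitted with genotype, without RUV, in the 15 libraries outside null, where a call needed the adjusted p alone (11349 genes). CPM values use TMM library sizes without RUV. Fold changes against groups at or under 3 counts per library are given against that floor, which covers counting error only. DESeq2 1.42.0, other scalings and filters, stage score, 2 RUV factors, a replicate block, compared groups only and leave-one-out were alternatives. The fits were tested on simulated data with known fold changes. The simulated data for null against FL held no stage shift or unwanted factor, so they could not test how such variation is handled.

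The 32 genes, the lists of markers and the list of other subunits were chosen with earlier results of these data known. Full statistics were given, by rule, for each gene called in any comparison and, in each of the 3 classes (potassium channels, other cation channels, receptors with CaMKII), for the 3 genes with the largest absolute mean of the log2 fold changes of null against FL and against WT. The subunits of the glutamate receptor and of the sodium channel were given as groups, and of the other subunits those called. Irk2, Irk3 and Shal were singled out after their values were seen. Positions and exon overlaps come from a later annotation of the same assembly as the authors used. Promoter and protein sequences were not used here.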

Additional observations from a re-analysis of the deposited data

Results flagged for a closer look

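In 12 of 132 genotype groups of 4 libraries (the 32 genes and the stage score, FL not tested with 3 libraries), 1 library stood further from the others than Dixon's 95% limit allows (9.09%). That limit lets about 1 in 20 pass by chance for independent, normally distributed values. These groups reuse the same libraries and hold linear CPM, some near 0, so an excess over chance cannot be read from the share. In null, replicate 3 was low for CaMKII (86.6 CPM, the others at 257 to 279) and for GABA-B-R1 (18.6, the others at 41.4 to 44.6), and replicate 2 was high for GluRIID (31.4, the others at 12.7 to 15.8). In WT, replicate 2 was high for Hk (16.6 CPM, the others at 2.02 to 3.30) and Ih (26.8, the others at 4.98 to 8.46), and replicate 4 for Shal (56.2, the others at 36.6 to 39.8). In FLWF24, replicate 3 was high for Irk2 (21.8 CPM, the others at 0 to 3.35) and Shal (52.9, the others at 33.9 to 36.6), and replicate 4 for Nmdar1 (8.10, the others at 0.136 to 0.926). In ΔN, replicate 1 was high for GluRIIA (1.15 CPM, the others at 0 to 0.189) and Irk2 (2.56, the others at 0), and replicate 2 was lowest for GluRIIB (0 CPM, the others at 2.83 to 3.13). By stage score, null replicate 3 was last among the null libraries (2.08), and WT replicate 2 (2.31) and FLWF24 replicate 3 (1.18) first in their groups.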

How the results depend on the processing

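The number of the 32 genes called depended on how unwanted variation was modelled. Without the RUV factor it was 15 in null against FL, 2 against WT and 16 against Chiffon-B only, beside 3, 1 and 2 with it. With the stage score in the model it was 0 in all 3, where 2, 24 and 11 of all genes were called, and log2 fold changes reversed for para (-0.64 against FL and -0.71 against WT), eag (-0.31 against WT) and Teh1 (-0.85 against WT). Against Chiffon-B only it was 4 with 2 RUV factors and 4 with no filter. Upper-quartile scaling and a fit of the compared groups alone gave 0 for null against WT, and the latter gave 2 for FL against WT. DESeq2 called 6 in null against FL, 7 against Chiffon-B only, 3 in FL against WT, 1 in each comparison between transgenes and 9 slopes, and an RUV factor beside the score left 0 slopes. The causes of these shifts were not tested. Counts in this section that stand without the share of all genes called in that fit cannot tell the set from genes at large. Replicate numbers did not pair the libraries: the correlation of deviations ran from -0.43 to 0.249 over 36 same-numbered pairs, 10 of them over 0.1, and 5 of 19 libraries correlated best with their own number. With a replicate block, the counts were 4 against Chiffon-B only, 1 slope, and 1 each for FLWF24 compared with FL and FL compared with WT. Leaving out 1 library in turn gave 1 to 5 calls in null against FL, 0 to 2 against WT, 1 to 8 against Chiffon-B only, 0 to 1 in FL against WT and in ΔN against FLWF24, 0 in the other comparisons and 2 to 7 slopes. Against FL the count was 1 without null replicate 2 or FL replicate 3 and 5 without ΔN replicate 1. Against WT it was 0 without null 1, 2 or 4, FL 3, any FLWF24 library, or WT 1, 3 or 4, and 2 without null 3. Against Chiffon-B only it was 1 without null 2, null 4, FLWF24 3 or FLWF24 4, 4 without FL 4, ΔN 2 or WT 1, 5 without ΔN 1, 6 without ΔN 4 and 8 without null 3. In FL against WT it was 1 without FL 4 or ΔN 1, and in ΔN against FLWF24 1 without ΔN 1. For genes low in counts, SEs of the log2 fold change against FL were 2.76 (Irk1), 2.77 (Elk) and 1.90 (Irk2).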
